A study of Mus musculus with 6 samples.

Results

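The genes that encode the initiation and elongation factors of cytosolic translation were compared between primary mouse neurons with and without CRISPR activation of *Kcna1*, the gene of the potassium channel Kv1.1. Members were taken by symbol. Of 50508 symbols in the files, 73 began with Eif1 to Eif6, Eef1 or Eef2, and after 7 pseudogenes and the sex-linked pair *Eif2s3x* and *Eif2s3y* were left out, 64 remained. *Eif2c5* and *Eif4e1b* were listed at 0 in all 6 libraries, which left 62 members. An exact 0 is no sign of a silent gene in these files, since the ribosomal protein genes *Rpl24* and *Rpl29* were also listed at 0 throughout.

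Both groups were neurons of newborn C57Bl/6J pups that received a single lentivirus, and each group had 3 libraries. The virus carried a guide RNA and dCas9-VP160, a catalytically dead Cas9 fused to a transcriptional activator. Ctrl-dCas9A (labelled sgLacZ) held a guide against the bacterial gene *LacZ*, and Kcna1-dCas9A (labelled sgKcna1) held the guide sg19 against the promoter of *Kcna1*. In both viruses dCas9-VP160 was driven by the Ef1α promoter, which comes from the gene of the elongation factor eEF1A1, itself a member. The labels name hippocampus and the methods describe cortical cultures, and all 5 hippocampal regional markers searched were detected in both groups. Time in culture is given in 2 differing versions. The methods speak of independent repetitions for the study as a whole but do not say whether the 3 libraries of a group were separate cultures or litters, so p-values measure the spread between these libraries.

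Translation of most messages begins when the cap-binding complex eIF4F, made of the cap binder eIF4E, the scaffold eIF4G and the helicase eIF4A, opens the 5′ end of the message. A small ribosomal subunit that carries eIF3, eIF1, eIF1A, eIF5 and the initiator tRNA bound to eIF2 then scans to the start codon, where eIF5B joins the large subunit. The exchange factor eIF2B recharges eIF2, and 4 kinases that phosphorylate eIF2 block this step under stress. During elongation eEF1A delivers aminoacyl-tRNAs, the eEF1B subunits recharge it, and eEF2 moves the ribosome along the message. In neurons the eIF2 kinases, the eIF4E-binding proteins and the eEF2 kinase are known for tying protein synthesis to synaptic activity.

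The deposited values were reads on a per-million scale (RPM) from 3′-end sequencing, rounded to whole numbers, with 1 read end per transcript and no division by gene length. Each library summed to between 999047 and 999717, so its true depth is not known, and 14788 to 15417 genes were above 0. *Kcna1* stood at 16, 16 and 16 in the Ctrl-dCas9A libraries against 68, 47 and 65 in Kcna1-dCas9A (log2 fold change 1.83, SE 0.16, limma adjusted p = 0.034). Ctrl-dCas9A replicate 3, called the third control below, stood apart from its group although its *Kcna1* value was that of a control. Over the 8050 genes with a mean of at least 10, its Pearson correlation with the other 2 controls was 0.954 to 0.960 and with the Kcna1-dCas9A libraries 0.958 to 0.974, whereas the other 2 controls correlated with each other at 0.980 and with the Kcna1-dCas9A libraries at 0.893 to 0.924. Where it changes a call of a gene named with an adjusted p, the value without it is given. Markers of other cells also differed. Summed astrocyte markers were at 961 to 1069 in Ctrl-dCas9A and 702 to 718 in Kcna1-dCas9A, with 3 of 10 lower by the test, dividing-cell markers at 123 to 134 and 76 to 84 with 0 of 10 called and 6 at an unadjusted p under 0.05, oligodendrocyte-lineage markers at 66 to 98 and 40 to 44 with *Olig2* of 7 tested lower and *Mog* at 0, and microglial markers at 23 to 28 and 58 to 78 with *C1qa* of 8 tested higher and *P2ry12* and *Tmem119* at 0. The 8 neuronal markers summed to 7001 to 7704 and 7706 to 8959 with none of them called, 2 higher and 3 lower at an unadjusted p under 0.05 and a median log2 fold change of −0.05. Of all genes tested, limma called 1.16%, and 23.2% had an unadjusted p under 0.05. The latter share was 32.1% at a mean of at least 1 and 39.7% at a mean of at least 10. The part of these cell types in the differences described below was not tested, and in whole cultures fewer cells of a type and less RNA per cell cannot be told apart.

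The translation factor genes lay on both sides of 0. By limma on log2(value + 1), with Benjamini-Hochberg adjustment over the 19504 genes above 0 in at least 1 library, 1 of the 62 members passed an adjusted p of 0.05, and this was *Eif3j1*, a loosely bound subunit of eIF3, which fell. That is 1.61% of members beside 1.16% of all genes tested, where 0.349% rose and 0.81% fell. In 29 members (46.8%) the 3 libraries of the groups did not overlap, 12 of them higher and 17 lower in Kcna1-dCas9A, beside 22.2% of all genes tested. The background rises with expression. The share was 30.6% among the 13604 genes with a mean of at least 1, as all members have. Among the 8050 genes with a mean of at least 10 the groups did not overlap in 39.8%, and in the 56 members of that level in 28 (50%). An unadjusted p under 0.05 was reached by 27 members, 11 higher and 16 lower, which is 43.5% beside 23.2% of all genes tested, and by 26 of the 56 (46.4%) beside 39.7%. The median log2 fold change of the members was −0.08, beside −0.02 for all genes, and with upper-quartile scaling of the libraries it was 0.03. The median size of the difference without its sign was 0.33 in members and in all genes, and at a mean of at least 10 it was 0.35 in members and 0.31 in all genes. On this scale the change of genes with low values is understated.

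How many members passed depended on 1 control library and on the genes tested. Without Ctrl-dCas9A replicate 3, 23 members passed, 9 higher and 14 lower, beside 14.2% of the genes then tested. When only genes with a mean of at least 1 were tested, 12 members passed, 5 higher and 7 lower, beside 11.3% of genes. With all 6 libraries scaled by median-of-ratios factors, 15 members passed, 9 higher and 6 lower, beside 8.82% of genes. In all 3 of these settings the same 10 members passed, with *Eif2b5*, *Eif3h*, *Eif4ebp3* and *Eef2* higher and *Eif3e*, *Eif3j1*, *Eif3j2*, *Eif4a1*, *Eif4a2* and *Eif4g2* lower. With any 1 of the other 5 libraries left out, or with the replicate number as a block, limma called no gene of the whole table, members, *Kcna1* and the genes of other lists included, while 19 to 22 members and 25 under the block had an unadjusted p under 0.05. Among the 29 members without overlap, replicate 3 was the control nearest to the Kcna1-dCas9A mean in 23, and among all 62 members in 42.

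**Figure D1:**
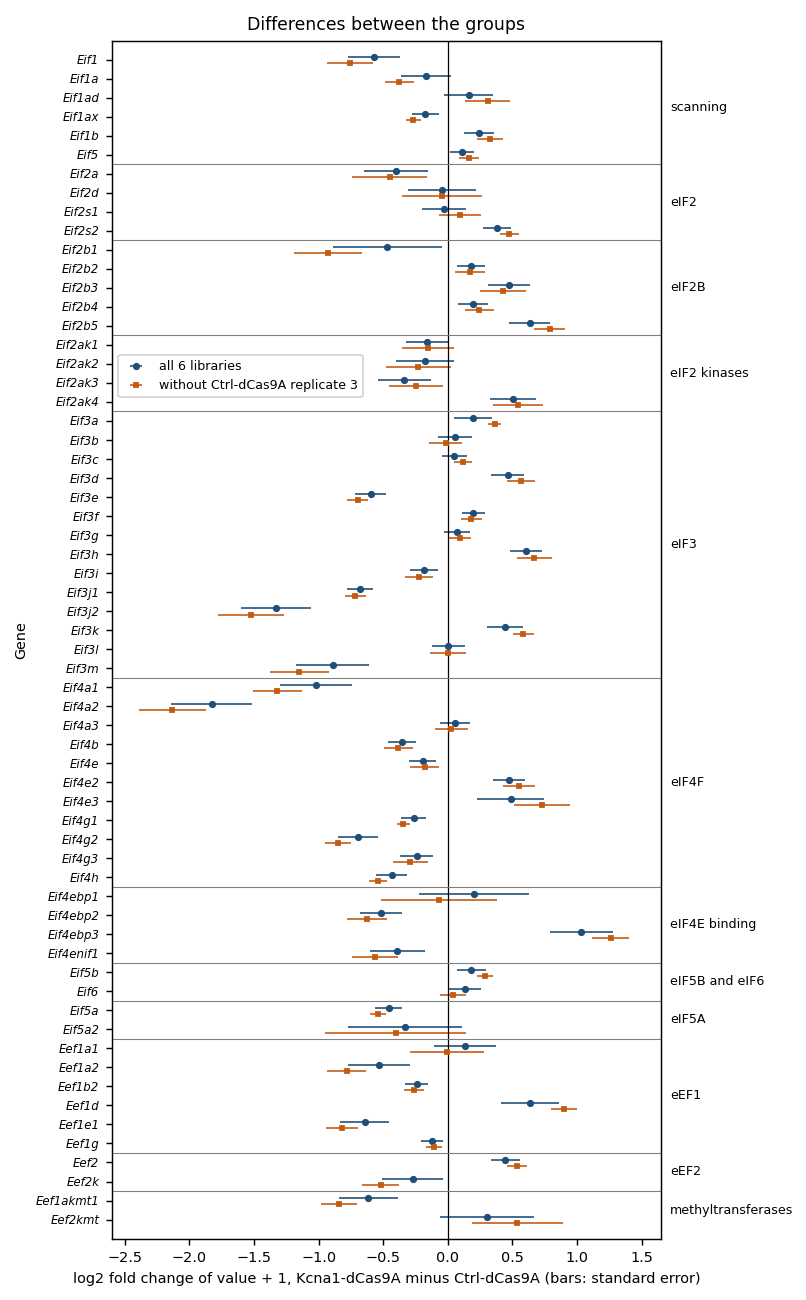
The log2 fold change of value + 1 (Kcna1-dCas9A minus Ctrl-dCas9A, horizontal axis) is plotted for each of the 62 members (vertical axis, grouped by role), with circles for all 6 libraries, squares without Ctrl-dCas9A replicate 3 and bars for the standard error. Values ran from −1.83 in *Eif4a2* to 1.03 in *Eif4ebp3*, and members on both sides of 0 occurred within most roles.

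The summed level of all members was 10528, 10742 and 11201 RPM in Ctrl-dCas9A and 11673, 11725 and 11926 in Kcna1-dCas9A. The groups did not overlap and the ratio of their means was 1.09, with means of 10824 ± 344 and 11775 ± 134 (SD, n = 3). This sum stood for 1.05% to 1.12% and 1.17% to 1.19% of each library. It rested on few genes, since 8 members held 57.1% of it, led by *Eef2* and followed by *Eif3a*, *Eif3h*, *Eif2s2*, *Eif5b*, *Eif4g2*, *Eif1b* and *Eef1b2*. In all, 26 members had a mean of at least 100 RPM, 30 lay from 10 to 100 and 6 lay below 10. By role, the sums for eIF2, eIF2B, eIF3 and eEF2 with its kinase lay higher in every Kcna1-dCas9A library than in any control, with ratios of 1.26, 1.32, 1.18 and 1.35 (1.35, 1.38, 1.24 and 1.44 without the third control). Single genes carried some of these sums, since *Eif2s2* was 92.5% of the eIF2 sum, where the other 3 genes had differences below 0, and *Eef2* was 99.1% of its sum, while in eIF3 more genes without overlap lay lower (5) than higher (4). The sums for eIF4F and eIF5A lay lower in every one, with ratios of 0.79 and 0.72 (0.74 and 0.68 without the third control). *Eif5a* was 98.4% of the eIF5A sum, and without *Eif4g2* the other 10 eIF4F genes summed to 1103 to 1213 and 1058 to 1080, a ratio of 0.91. The eEF1 sum overlapped with a ratio of 0.98. The sums for eIF2, eIF2B, eIF3, eEF2, eIF4F and eIF5A lay apart in the same direction under 3 other scalings. These were median-of-ratios factors, upper-quartile factors and leaving out the ribosomal RNA-like transcript *Gm42418*. The sum of *Eif5b* and *Eif6* overlapped as deposited and lay higher with the first 2 of these scalings. The methyltransferase sum overlapped as deposited and with those 2, and lay lower without *Gm42418* (ratio 0.68).

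**Figure D2:**
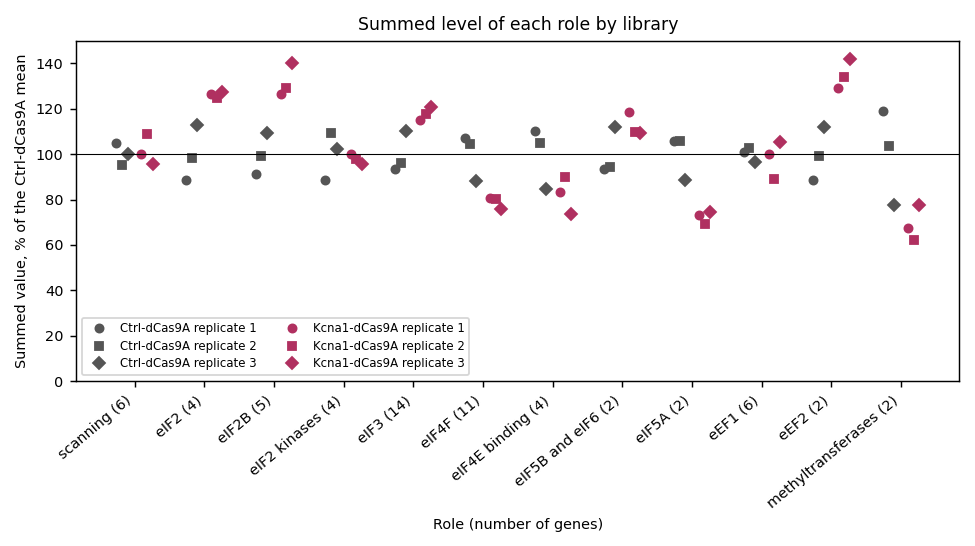
The summed value of each role (horizontal axis, with the number of genes) is drawn for each of the 6 libraries as a percentage of the Ctrl-dCas9A mean (vertical axis). The eIF2B and eEF2 points of Kcna1-dCas9A lie above those of Ctrl-dCas9A and the eIF4F and eIF5A points below them, while the eEF1 points are mixed.

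The genes named for eIF4 proteins outside the eIF4E binders, called eIF4F here, leaned lower. They include eIF4B, eIF4H and the relatives *Eif4a3*, *Eif4g2* and *Eif4e2*, which are not parts of the eIF4F complex itself. Of its 11 genes, 6 did not overlap and were lower and 1 was higher, 63.6% in all. Among genes with a mean of at least 10, 23.9% were lower and 15.9% higher without overlap. The median log2 fold change was −0.26, beside −0.02 for all genes and −0.06 for those with a mean of at least 10. All 11 have such a mean. With median-of-ratios and upper-quartile factors the median was −0.18 and −0.15, beside 0.03 and 0.06 for genes of that level. By limma none passed the adjusted threshold over all genes above 0. An unadjusted p under 0.05 was reached by 7 (63.6%), beside 39.7% of genes with a mean of at least 10. When only genes with a mean of at least 1 were tested, 1 was called higher and 3 lower, beside 11.3% of those genes. *Eif4a2* held the greatest difference of all members. It encodes the helicase form that predominates in brain and stood at 46, 46 and 24 in the Ctrl-dCas9A libraries against 13, 7 and 10 in Kcna1-dCas9A (log2 fold change −1.83, SE 0.31, limma adjusted p = 0.051). *Eif4a1*, the form best known from dividing cells, stood at 52, 58 and 29 and at 23, 25 and 17 (−1.02, SE 0.28, adjusted p = 0.085). In both genes the third control lay between the other controls and the Kcna1-dCas9A libraries without touching them, and without it the differences were −2.13 (adjusted p = 0.021) and −1.32 (0.026). *Eif4a3*, a relative that works in the exon junction complex rather than in initiation, ranged from 161 to 206 over the 6 libraries with overlap. The helicases are close in sequence, and reads of shared stretches could be split between them.

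The scaffolds differed in the same direction. *Eif4g2* (DAP5), an eIF4G relative without the eIF4E-binding part that serves cap-independent initiation, stood at 936, 868 and 653 in the Ctrl-dCas9A libraries against 524, 532 and 447 in Kcna1-dCas9A (log2 fold change −0.70, SE 0.15, limma adjusted p = 0.056, and 0.021 without the third control). *Eif4g1*, the main scaffold, stood at 319, 321 and 271 and at 258, 254 and 244 (−0.26, SE 0.10, adjusted p = 0.15, and 0.028 without the third control). Neither gene overlapped, whereas *Eif4g3* did, at 112, 112 and 101 and at 103, 78 and 95. *Eif4b* (95 to 106 and 69 to 83) and *Eif4h* (90 to 117 and 74 to 79), which stimulate the helicase, also lay lower without overlap.

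The cap binders went separate ways. *Eif4e*, the cap binder of eIF4F, stood at 119, 104 and 115 in the Ctrl-dCas9A libraries against 100, 106 and 89 in Kcna1-dCas9A (log2 fold change −0.20), and the groups overlapped. *Eif4e2* (4EHP), which binds the cap without recruiting eIF4G and is known as a repressor, stood at 140, 158 and 174 and at 215, 196 and 247 (0.48, SE 0.12, limma adjusted p = 0.077). It was the sole eIF4F member that lay higher in every Kcna1-dCas9A library. *Eif4e3* overlapped at 28, 20 and 40 and at 41, 33 and 47. Among the proteins that hold eIF4E, *Eif4ebp3* was low but lay higher, at 4, 4 and 7 and at 10, 12 and 11 (1.03, SE 0.25, adjusted p = 0.063, and 0.021 without the third control). The more abundant *Eif4ebp2*, the main such repressor in brain, lay lower, at 58, 48 and 42 and at 39, 33 and 30 (−0.52, SE 0.16, adjusted p = 0.11). *Eif4ebp1* (2 to 7 over all libraries) and the eIF4E transporter gene *Eif4enif1* (14 to 25) overlapped.

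The 14 eIF3 genes, whose products form the largest initiation complex and hold the small subunit, were split. Without overlap were 4 that lay higher and 5 that lay lower (64.3% in all, beside 30.6% of genes with a mean of at least 1 and 39.8% at a mean of at least 10), and the median log2 fold change was 0.05, beside −0.02 for all genes. *Eif3j1*, the member that passed the test, stood at 76, 71 and 68 in the Ctrl-dCas9A libraries against 45, 42 and 46 in Kcna1-dCas9A (−0.68, SE 0.10, limma adjusted p = 0.0496). Its controls were close together, with means of 71.7 ± 4.0 and 44.3 ± 2.1 (SD, n = 3), and the difference without the third control was −0.72 (adjusted p = 0.021). Leaving out any of the other 5 libraries ended the call, as did the replicate block (adjusted p = 0.11) and a fit with no intensity trend (0.084), while the difference over the libraries left out stayed between −0.72 and −0.64. Its near-identical copy *Eif3j2* stood at 19, 15 and 11 and at 7, 4 and 5 (−1.33, SE 0.27, adjusted p = 0.056, and 0.033 without the third control), and reads could be split between the pair. *Eif3m* (24, 16 and 11 and 7, 9 and 9, log2 fold change −0.89, limma adjusted p = 0.12, and 0.041 without the third control), *Eif3e* (86 to 110 and 62 to 69) and *Eif3i* (91 to 108 and 79 to 88) also lay lower.

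*Eif3h*, a subunit that budding yeast lacks, was on the opposite side and far more abundant. It stood at 525, 513 and 593 in the Ctrl-dCas9A libraries against 729, 796 and 972 in Kcna1-dCas9A (log2 fold change 0.61, SE 0.13, limma adjusted p = 0.056, and 0.042 without the third control). *Eif3d* (191 to 261 and 296 to 328), which can itself bind the cap, *Eif3k* (126 to 173 and 180 to 208) and *Eif3f* (247 to 270 and 282 to 315) lay higher too without overlap. The largest subunit gene, *Eif3a*, stood at 652, 666 and 933 and at 880, 840 and 827 (0.20, SE 0.15, adjusted p = 0.48). The third control exceeded every Kcna1-dCas9A library, and without that control the difference was 0.36 (adjusted p = 0.024). The subunits of 1 complex were thus recorded at unequal levels and with differences of either sign.

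**Figure D3:**
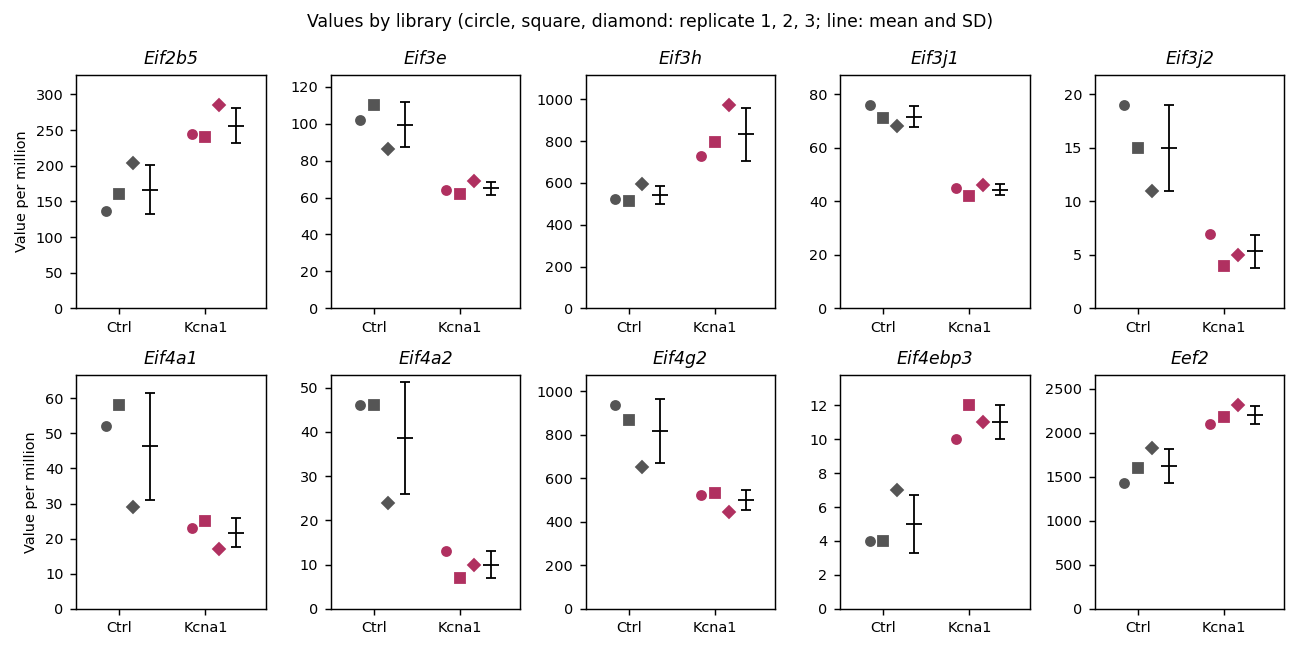
Values in RPM (vertical axes from 0, scaled per gene) are shown for the 10 members that passed in all 3 other settings, with Ctrl-dCas9A in grey, Kcna1-dCas9A in red, circles, squares and diamonds for replicates 1, 2 and 3 and bars for the mean and SD. *Eif4a2* and *Eif4g2* are lower and *Eef2* and *Eif3h* higher in all 3 Kcna1-dCas9A libraries, and the third control (grey diamond) is the control nearest to Kcna1-dCas9A in each of the 10.

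Among the 4 genes of the initiator tRNA carriers 1 lay higher and 3 had differences below 0, with a median log2 fold change of −0.04. *Eif2s2*, the beta subunit of eIF2, stood at 516, 598 and 677 in the Ctrl-dCas9A libraries against 774, 767 and 779 in Kcna1-dCas9A (log2 fold change 0.38, SE 0.11, limma adjusted p = 0.098, and 0.032 without the third control). *Eif2s1*, the alpha subunit that the kinases phosphorylate, ranged from 28 to 43 with overlap (−0.03), and *Eif2a* (8 to 18) and *Eif2d* (5 to 10), which deliver tRNA without eIF2, overlapped as well. Of the 5 eIF2B genes, 3 (60%, beside 30.6% of genes with a mean of at least 1), *Eif2b3*, *Eif2b4* and *Eif2b5*, lay higher without overlap. *Eif2b5*, the catalytic epsilon subunit, stood at 136, 160 and 204 and at 244, 240 and 285 (0.63, SE 0.16, adjusted p = 0.070, and 0.028 without the third control). *Eif2b1* (4 to 12 over all libraries) and *Eif2b2* (81 to 107) overlapped. The means of *Eif2b5* were 167 ± 34.5 and 256 ± 24.9 (SD, n = 3).

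Of the 4 eIF2 kinase genes, *Eif2ak4* (GCN2), the sensor of uncharged tRNA, stood at 17, 18 and 19 in the Ctrl-dCas9A libraries against 21, 26 and 32 in Kcna1-dCas9A (log2 fold change 0.51, SE 0.18, limma adjusted p = 0.14). *Eif2ak1* (HRI), the kinase regulated by haem, was the most abundant of them at 41, 59 and 50 and at 50, 44 and 39, and the groups overlapped. *Eif2ak2* (PKR, 9 to 14) and *Eif2ak3* (PERK, 10 to 17) overlapped too, and the 4 kinase genes summed to 84 to 104 and 91 to 95.

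None of the 6 genes for scanning and start-site selection separated the groups, and 1 reached an unadjusted p under 0.05, beside 39.8% and 39.7% of genes with a mean of at least 10, as all 6 have. *Eif1*, which keeps scanning strict, stood at 282, 222 and 169 in the Ctrl-dCas9A libraries against 147, 173 and 126 in Kcna1-dCas9A (log2 fold change −0.57, SE 0.20, limma adjusted p = 0.15). The third control lay below 1 Kcna1-dCas9A library. Its close relative *Eif1b* stood at 482, 452 and 552 and at 586, 649 and 527 (0.25, SE 0.12, adjusted p = 0.26). The eIF1A pair overlapped, with *Eif1ax* at 165, 168 and 137 and at 141, 140 and 134 (adjusted p = 0.37, and 0.047 without the third control) and *Eif1a* at 47, 52 and 32 and at 36, 36 and 42. *Eif5*, which triggers GTP hydrolysis on eIF2, ranged from 254 to 316 and *Eif1ad* from 28 to 45, both with overlap. At subunit joining, *Eif5b* stood at 572, 577 and 715 and at 748, 687 and 671 with overlap (0.18, SE 0.11, adjusted p = 0.38), and *Eif6*, which keeps free large subunits apart, ranged from 64 to 89 with overlap.

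*Eef2*, the translocase, had the highest level of all members. It stood at 1432, 1602 and 1824 in the Ctrl-dCas9A libraries against 2102, 2181 and 2309 in Kcna1-dCas9A, with means of 1619 ± 197 and 2197 ± 104 (SD, n = 3). All 3 Kcna1-dCas9A libraries lay above the controls, the log2 fold change was 0.45 (SE 0.11, limma adjusted p = 0.069), and without the third control it was 0.54 (adjusted p = 0.025). The gene of its inhibitory kinase, *Eef2k*, was low and overlapped at 20, 25 and 13 and at 16, 14 and 16 (−0.27, ranging from −0.52 without the third control to −0.07 without Ctrl-dCas9A replicate 2). *Eif5a*, which relieves ribosomes stalled on difficult stretches, stood at 164, 160 and 136 and at 112, 106 and 115 (−0.46, SE 0.10, adjusted p = 0.056, and 0.021 without the third control), and its paralog *Eif5a2* was at 1 to 5.

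The eEF1 genes did not move as a unit. *Eef1a1*, whose promoter drives dCas9-VP160 in both viruses, stood at 331, 333 and 248 in the Ctrl-dCas9A libraries against 339, 235 and 452 in Kcna1-dCas9A (log2 fold change 0.13, SE 0.24, limma adjusted p = 0.74). The Kcna1-dCas9A values of this gene spanned those of the controls, and its many processed copies in the genome can take up its reads. *Eef1a2*, the form of mature neurons and muscle, stood at 29, 33 and 18 and at 19, 15 and 19 (−0.53, SE 0.24, adjusted p = 0.24, and 0.039 without the third control). Among the exchange subunits *Eef1b2* lay lower, at 543, 572 and 534 and at 476, 492 and 429 (−0.24, SE 0.09, adjusted p = 0.15), and *Eef1g* (129 to 137 and 121 to 127) lay lower by a small margin. *Eef1d* stood at 85, 84 and 148 and at 168, 142 and 167 (0.63, SE 0.22, adjusted p = 0.15). In *Eef1d* the third control was among the Kcna1-dCas9A values, and without it the difference was 0.90 (adjusted p = 0.020). *Eef1e1*, whose product is also known as a scaffold of the aminoacyl-tRNA synthetase complex, stood at 24, 20 and 15 and at 12, 12 and 12 (−0.64, SE 0.19, adjusted p = 0.10, and 0.028 without the third control). The methyltransferase gene *Eef1akmt1* stood at 22, 18 and 12 and at 11, 10 and 11 (−0.61, SE 0.23, adjusted p = 0.16, and 0.033 without the third control), and *Eef2kmt* was at 1 to 4.

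**Figure D4:**
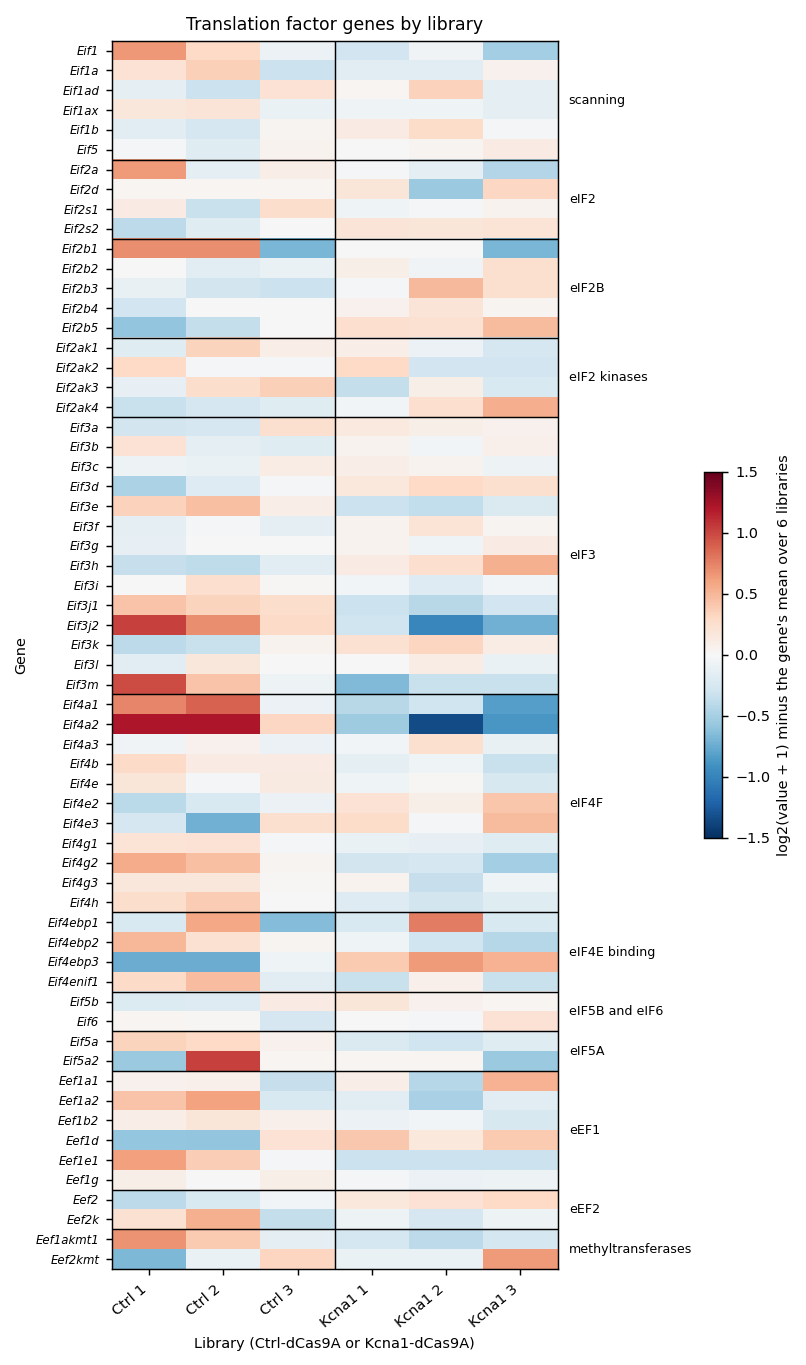
Each row is 1 of the 62 members, grouped by role, each column 1 of the 6 libraries, and the colour gives log2(value + 1) minus the mean of that gene over the 6 libraries (red above it, blue below it). *Eif4a2* and *Eif3j2* turn from red to blue between Ctrl-dCas9A and Kcna1-dCas9A and *Eif4ebp3* from blue to red, and the third Ctrl-dCas9A column is paler than the other 2 in these rows.

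Related genes were also set against each other within each library, which cancels the scaling of the library. Of 12 pairs, 5 did not overlap between the groups, and the exact 2-sided permutation p of each of these was 0.1, the smallest that 3 against 3 libraries can give (0.24 after Benjamini-Hochberg adjustment over the 12). No other pairs of genes were compared, so the count has no background of its own. Among single genes with a mean of at least 10 the groups did not overlap in 39.8%. The ratio of *Eif1* to *Eif1b*, taken on the values as deposited like the other ratios printed here, was 0.585, 0.491 and 0.306 in Ctrl-dCas9A and 0.251, 0.267 and 0.239 in Kcna1-dCas9A. Although neither gene separated the groups alone, their ratio did, by −0.82 on the log2 scale of value + 1, on which the pairs were tested. *Eif4a2* to *Eif4a1* stood at 0.885, 0.793 and 0.828 and at 0.565, 0.280 and 0.588, and here the third control was like the other controls. *Eef1a2* to *Eef1a1* stood at 0.088, 0.099 and 0.073 and at 0.056, 0.064 and 0.042. *Eif4g2* to *Eif4g1* was lower, at 2.41 to 2.93 and 1.83 to 2.09, and *Eif4e2* to *Eif4e* higher, at 1.18 to 1.52 and 1.85 to 2.78. In the 7 remaining pairs the groups overlapped or touched on that log2 scale. *Eif1ax* to *Eif1a* overlapped. *Eif3j2* to *Eif3j1* only touched, at −2.52 in both the third control and Kcna1-dCas9A replicate 1. As deposited its ratios did not overlap, at 0.250, 0.211 and 0.162 and at 0.156, 0.095 and 0.109.

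**Figure D5:**
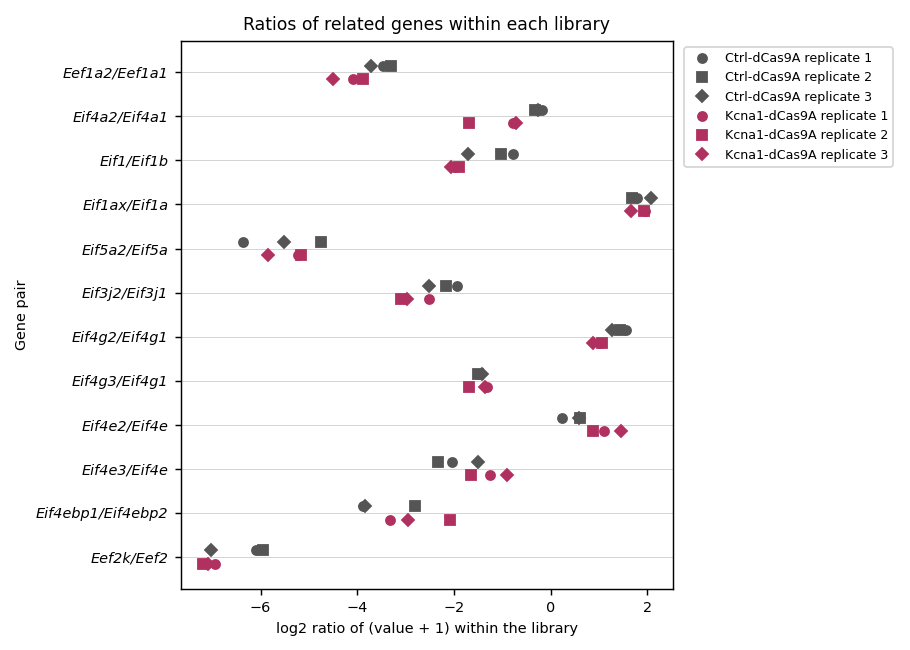
The log2 ratio of (value + 1) within a library (horizontal axis) is plotted for 12 pairs of related genes (vertical axis), with a marker for each of the 6 libraries. Groups are apart for *Eef1a2* to *Eef1a1*, *Eif4a2* to *Eif4a1*, *Eif1* to *Eif1b*, *Eif4g2* to *Eif4g1* and *Eif4e2* to *Eif4e*. They touch at 1 shared value for *Eif3j2* to *Eif3j1* and are mixed for the remaining pairs.

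The promoters of the members were searched for 2 motifs common at genes of the translation machinery, in the RefSeq table for GRCm38.p6, which runs from 250 bases before to 50 after each annotated start and matched 48 of the 62 members. The E-box CACGTG, which Myc and related factors bind and which reads the same on both strands, was in the promoters of 12 of the 48 (25%), beside 8.09% of the 27025 genes in the table. Of these 12, 2 reached an unadjusted p under 0.05 as higher and 4 as lower, and of the other 36, 5 were higher and 8 lower. The ETS motif CCGGAAGT was searched on both strands, cannot by its letters overlap a match of the E-box, and was in 9 of the 48 (18.8%), beside 4.31% of all genes, with 2 higher and 2 lower. Holding either motif thus went with differences of both signs. The stretches around the E-box are shown for the 6 members with an unadjusted p under 0.05, 2 of them higher (*Eef2* and *Eif3k*) and 4 lower, so that the same letters can be seen beside values that differ in direction. *Eif5a* has several annotated starts and 2 E-boxes before them, of which the one nearer to a start is shown. Capitals mark the E-box, each stretch runs 5′ to 3′ on the strand of the gene, and the start lies 37 bases after the E-box in *Eef2* and 183 in *Eif4a1*.
Eef2, chr10:81176568-81176613, + strand: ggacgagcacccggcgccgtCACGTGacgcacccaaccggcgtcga
Eif3k, chr7:28981907-28981952, - strand: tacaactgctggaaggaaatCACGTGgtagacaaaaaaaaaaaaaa
Eif4a1, chr11:69672587-69672632, - strand: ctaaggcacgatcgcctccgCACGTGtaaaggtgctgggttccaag
Eif4g1, chr16:20672653-20672698, + strand: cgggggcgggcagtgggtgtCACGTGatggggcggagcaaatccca
Eif4h, chr5:134639480-134639525, - strand: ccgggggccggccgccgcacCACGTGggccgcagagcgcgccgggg
Eif5a, chr11:69921435-69921480, - strand: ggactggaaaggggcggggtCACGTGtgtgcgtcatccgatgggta

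The genes around these factors were described by lists of the same pathway. Of 26 recycling, termination, poly(A)-binding and accessory genes none passed the adjusted threshold by limma, 3 were higher and 8 lower at an unadjusted p under 0.05 (42.3%, beside 23.2% of all genes and 39.7% at a mean of at least 10). Without the third control 1 was called higher and 6 lower, where 14.2% of all genes were called. With median-of-ratios factors 3 were called higher and 3 lower, where 8.82% of genes were called. At a mean of at least 1 it was 0 higher and 4 lower, where 11.3% were called. With all libraries the median log2 fold change was −0.21, beside −0.02 for all genes. *Pabpc1*, the poly(A)-binding protein that joins the message end to eIF4G, stood at 823, 737 and 529 in the Ctrl-dCas9A libraries against 378, 355 and 388 in Kcna1-dCas9A (−0.87, SE 0.16, limma adjusted p = 0.053, and 0.017 without the third control). Its groups did not overlap, and the third control was the one nearest to Kcna1-dCas9A.

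Cytosolic aminoacyl-tRNA synthetases and their scaffold, which charge the tRNAs that eEF1A carries, leaned higher. Of 22 genes, 9 were higher and 2 lower at an unadjusted p under 0.05 (50%, beside 23.2% of all genes and 39.7% at a mean of at least 10), and the median was 0.21. *Aimp2*, a scaffold of the synthetase complex, rose from 65, 65 and 64 to 100, 103 and 100 (log2 fold change 0.64, SE 0.09, limma adjusted p = 0.0486), and it was the sole gene of the list to pass. The list summed to 2222, 2224 and 2726 and to 3035, 2864 and 2973, with the third control again between the groups. Without that control 10 genes were called higher and 1 lower, where 14.2% of all genes were called.

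Of 82 cytosolic ribosomal protein genes tested, 4 (4.88%, beside 1.16% of all genes) passed the adjusted threshold with all libraries, all lower, and 11 were higher and 36 lower at an unadjusted p under 0.05 (57.3%, beside 23.2% of all genes, 32.1% at a mean of at least 1 and 39.7% at a mean of at least 10), with a median of −0.26. Without the third control 11 were called higher and 23 lower, and with median-of-ratios factors 6 higher and 21 lower, where 14.2% and 8.82% of all genes were called. *Rps23* fell from 79, 61 and 66 to 38, 33 and 25, *Rps18* from 74, 82 and 62 to 44, 42 and 39, and *Rpl35a* from 22, 17 and 14 to 6, 6 and 5. *Rpl17* fell from 208, 196 and 176 to 108, 93 and 74 (log2 fold change −1.08, SE 0.15, limma adjusted p = 0.0486). The summed level did not follow the count. It was 23884, 24166 and 25529 and 23773, 25339 and 24807, with means of 24526 and 24640, and many of these genes have processed copies that can take up their reads.

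Of 18 genes of mTOR and MNK signalling none passed by limma, and 2 were higher and 3 lower at an unadjusted p under 0.05 (27.8%, beside 23.2% of all genes and 32.1% at a mean of at least 1). Without the third control 2 were called, both lower, where 14.2% of all genes were called. With median-of-ratios factors 1 was called higher and 0 lower, where 8.82% were called. The gene with the lowest p, *Rps6ka2*, was listed at 1, 1 and 1 and at 0, 0 and 0, too low for a fold. Of 20 genes of the integrated stress response, which follows eIF2 phosphorylation, none passed, with 3 higher and 4 lower at an unadjusted p under 0.05 (35%), and without the third control 2 were called higher and 2 lower, beside the same 14.2%. *Ddit4*, an inhibitor of mTOR, stood at 110, 132 and 107 and at 85, 80 and 79 (log2 fold change −0.51, SE 0.11, limma adjusted p = 0.056, and 0.035 without the third control). *Atf4*, the central factor of that response and chosen after its values were seen, stood at 305, 311 and 471 and at 492, 503 and 588 (0.57, SE 0.18, adjusted p = 0.12, and 0.77 with an adjusted p of 0.021 without the third control), that control being close to the Kcna1-dCas9A values. Of 10 mitochondrial translation factors none passed and 2 were lower at an unadjusted p under 0.05, led by *Tsfm* at 9, 5 and 5 and at 2, 2 and 3. That is 20%, below the 23.2% of all genes and the 32.1% of genes with a mean of at least 1.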

How the data were processed

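RNA of 6 libraries, 3 per group, was sequenced with a QuantSeq 3′ kit. Groups came from the guide named in the labels. The authors' methods give alignment with Bowtie2 to mm9 and testing with DESeq2, while the submitters' processing notes list STAR 2.7, featureCounts, DESeq2 and mm10 with no roles. The deposited value is a whole-number score per gene, the authors' reads on a per-million scale (RPM) after rounding, since each library sums to between 999047 and 999717. Counts and depth are not known, so neither counting intervals nor a count test was used.

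Values were tested as log2(value + 1) with limma 3.58.1 in R 4.3.3 (functions lmFit and eBayes, variance trended on intensity, group as the only term), Benjamini-Hochberg adjusted over 19504 genes above 0 in at least 1 library, at an adjusted p of 0.05. The script was tested on simulated data. Members, roles, pairs and lists were chosen with earlier results of these data known. Library values are printed for members past the threshold, the 5 highest and 5 lowest log2 fold changes, the highest level and lowest p of each role and all paired genes, and in the other pathway lists for genes past the threshold and the lowest p. *Atf4* was added after its values were seen, and marker lists are given as sums. Pair ratios were compared by exact permutation. Alternatives were other pseudocounts, filters, scalings and variance settings, a replicate block and leaving out each library. Promoters were read from the RefSeq table, and 14 members had no entry.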

Additional observations from a re-analysis of the deposited data

How the results depend on the processing

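The number of members called was 1 with all libraries, 2 with a pseudocount of 0.1 and 2 with a pseudocount of 5, 12 when genes had a mean of at least 1, 20 of 56 at a mean of at least 10, 15 with median-of-ratios factors, 15 with upper-quartile factors, 12 without *Gm42418* (15.3% to 20.2% of each library) and 20 with robust variance. By limma it was 0 with no intensity trend and 0 with the replicate block, where 21 and 25 members had an unadjusted p under 0.05. Leaving out 1 library gave 0 to 23, with 23 only without Ctrl-dCas9A replicate 3 and 0 without any of the other 5, where 19 to 22 members had an unadjusted p under 0.05. An alternative chosen after seeing the data, without that library and with genes of a mean of at least 1, gave 27 (11 higher and 16 lower), where 23.8% of all genes were called. In the same order the share of all genes called was 1.16% at first, then 3.21%, 2.44%, 11.3%, 28.4%, 8.82%, 10.6%, 9.07% and 14.8% with robust variance, 1.03% with no intensity trend, 0 with the block and 0 to 14.2% when 1 library was left out. The cause was not tested.

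Same-numbered libraries of the groups had deviations that correlated at 0.014, 0.114 and 0.154, beside −0.156 to 0.099 for libraries of different numbers, and 5 of 6 libraries correlated best with their own number. Not every pair was above 0.1 and the labels name no shared culture, so the numbers were not taken as pairs. Under the replicate block no gene was called and 4326 had an unadjusted p under 0.05, and *Kcna1* was 1.83 with an adjusted p of 0.11 by limma. Leaving out 1 library gave *Kcna1* values of 1.73 to 1.99, under the threshold only without Ctrl-dCas9A replicate 3. The median log2 fold change of the members was −0.14 at a mean of at least 10, −0.0026 with median-of-ratios and 0.026 with upper-quartile factors, and −0.14 to −0.035 with 1 library left out. Upper-quartile scaling moved the median of all genes with a mean of at least 10 by 0.11. The summed-level ratio was 1.16 with median-of-ratios and 1.18 with upper-quartile factors.

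Of 35 named members, *Eif5a2* changed sign to 0.097 without Ctrl-dCas9A replicate 2 (range −0.69 to 0.097 over the libraries left out), *Eif4ebp1* to −0.070 without Ctrl-dCas9A replicate 3 (also in the alternative chosen after seeing the data) and −0.13 without Kcna1-dCas9A replicate 2 (range −0.13 to 0.54), and *Eef1a1* to −0.0076 without Ctrl-dCas9A replicate 3 (also in that alternative) and −0.094 without Kcna1-dCas9A replicate 3 (range −0.094 to 0.38). Of 557 pairs of a named member and an alternative, counted without the one chosen after seeing the data, 453 kept direction and side of the threshold, 92 passed it newly, 7 lost it and 5 reversed. Unknown depth limits what can be said of members below 10 RPM.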
